A study of Bos taurus with 72 samples.

Results

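Bovine mammary epithelial cells (BMECs) that received phenylalanine as their only essential amino acid (EAA) were compared with the same cells in medium without any EAA. The phenylalanine medium (Phe) and the EAA-free control medium (NEG) had 6 libraries each, so the comparison used 12 of the 72 RNA-seq libraries in the series, chosen by their labels. The series tested 12 media with 6 replicates each: NEG, complete DMEM-F12 medium (POS), and NEG supplemented with 1 of 10 EAA at the concentration of that EAA in POS. All cells were wild type, were starved of serum overnight, and were taken after 6 h of treatment. Primary BMECs at 6 passages were grown in medium with serum and insulin before that. Whether this medium also held prolactin, transferrin, hydrocortisone and epidermal growth factor is unsettled, as the methods of the study do not name them. The study calls the replicates biological, but the labels tie them to no separate animals or cultures, so p-values measure the spread between these samples.

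Phenylalanine enters cells through the large neutral amino acid transporters, is charged onto its own transfer RNA for protein synthesis, and is turned into tyrosine by phenylalanine hydroxylase, mainly in the liver. Mammary epithelial cells use it for casein and other milk proteins. A shortage of EAA is sensed in animal cells by the kinase GCN2, which acts through the transcription factor ATF4, and by the mTORC1 pathway, which sets the rate of translation.

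Expression was deposited as FPKM, for 29550 genes. FPKM is a fragment count scaled to gene length and to library depth, and the depth factors recovered from these values followed size factors by the median of ratios, not the total reads on genes. Ensembl identifiers stood for 27570 genes and running names given in transcript assembly for the other 1980. None of these identifiers was found in the gene table of 37063 rows used here, so no gene symbol, sequence or function is given, the planned lists of transport, breakdown and amino acid response genes were not looked up, and the labelled cell type was not checked against epithelial markers. Genes are therefore described by identifier, level, length and number of reads. Differences were tested with limma on log2(FPKM + 1) for 12121 genes, those whose FPKM averaged 1 or more over the 72 libraries. Of these, 6452 had a mean FPKM of at least 10 and are called well-expressed, and 5669 had a mean FPKM of 1 to 10. A gene is said to have risen or fallen where its Benjamini-Hochberg adjusted p by limma was under 0.05.

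The Phe libraries lay close together. Reads here are the whole counts recovered from the FPKM, so they stand for fragments (read pairs) and not for single sequenced reads. Reads on genes in Phe ranged from 15252429 to 17847085 with a median of 16208266, and those in NEG from 15907885 to 17910737 with a median of 16534948. Over the well-expressed genes, the median SD between the 6 Phe libraries was 0.085 on the log2(FPKM + 1) scale, the lowest of the 12 media, where counting of reads alone gives a median SD of 0.043. The same median SD was 0.194 in NEG and between 0.110 in the threonine medium (Thr) and 0.401 in POS for the others. NEG_2 stood apart: its root mean square distance from the mean of the other NEG libraries was 0.633 in log2 units, against 0.149 to 0.190 for the other NEG libraries and 0.102 to 0.147 for each Phe library from the rest of Phe. Without NEG_2 the median SD in NEG was 0.075, and without Thr_3, which stood apart in Thr, that of Thr was 0.077, both below that in Phe. In 86.0% of the well-expressed genes the SD was smaller in Phe than in NEG, and in 40.5% when NEG_2 was left out. The results are therefore given with and without NEG_2.

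**Figure D1:**
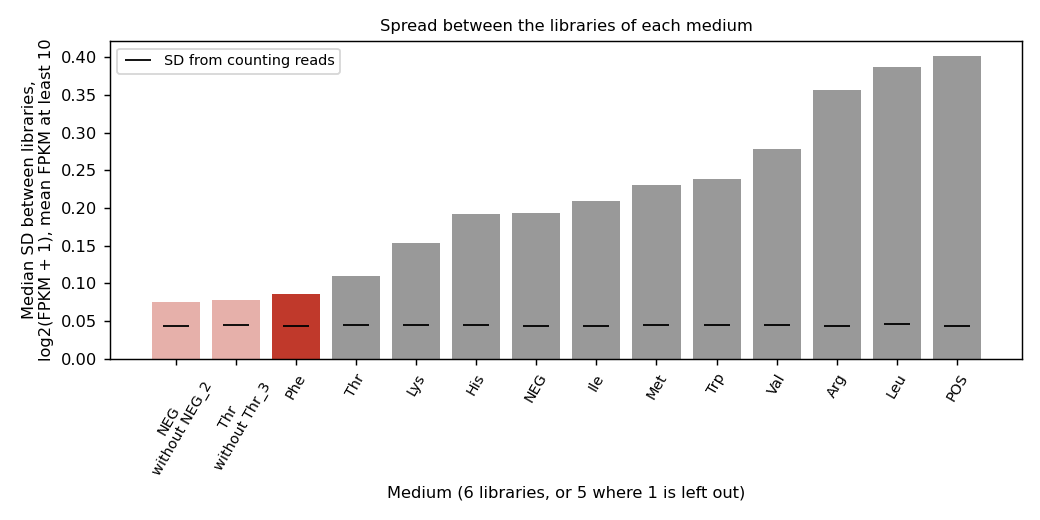
Median SD between libraries of log2(FPKM + 1) over the 6452 well-expressed genes, as bars for each medium, with the SD that counting of reads gives as a black dash. Phe had 0.085 and NEG 0.194, which became 0.075 without NEG_2, and Thr without Thr_3 had 0.077.

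Small differences in many well-expressed genes separated Phe from NEG. Of the 6452 well-expressed genes, 235 were higher in Phe (3.64%) and 721 were lower (11.2%) at an adjusted p under 0.05 by limma. The balance turned in 1 fit of all 12 media, where 147 were higher and 113 lower. When libraries of the same number were paired, 0 well-expressed genes passed. The median log2 fold change was 0.33 for the genes that rose, with an interquartile range of 0.25 to 0.44, which is a 1.26-fold higher level on the FPKM + 1 scale. It was −0.34 for the genes that fell, with an interquartile range of −0.42 to −0.26, or 0.791 times the NEG level. A log2 fold change over 0.5 in size was reached by 39 of the 235 genes and by 61 of the 721 genes, and over 1 by 5 and 0 genes. In the same genes without NEG_2 it was over 0.5 in 17 and 11, and over 1 in 2 and 0. Over all well-expressed genes tested the median log2 fold change was −0.09. Such medians depend on the scaling: over all 12121 genes the median was −0.04 as deposited and 0.02 when libraries were scaled by total reads. In bulk samples a smaller share of cells with a transcript and less of it per cell cannot be told apart.

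The FPKM of the 6 Phe libraries all lay above those of the 6 NEG libraries for 555 well-expressed genes (8.60%) and all below for 1001 (15.5%). Of these, 187 and 529 also passed the adjusted p. In the other called genes the ranges of Phe and NEG overlapped. For 208 of the 235 genes that rose and 647 of the 721 that fell, NEG_2 was the NEG library farthest from Phe.

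Leaving out NEG_2 made the differences smaller and the calls more numerous. The genes that rose had a median log2 fold change of 0.26 without NEG_2 and those that fell had −0.27. Calls without NEG_2 were 923 genes higher (14.3%) and 2016 lower (31.2%) among the well-expressed, and all 1479 genes called with NEG_2, low genes included, were among the 4122 called without it. Median log2 fold changes of the called genes without NEG_2 were 0.21 for those higher and −0.22 for those lower. The half-width of the 95% interval of a log2 fold change, as a median over the well-expressed genes, was 0.186 with NEG_2 and 0.109 without it.

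**Figure D2:**
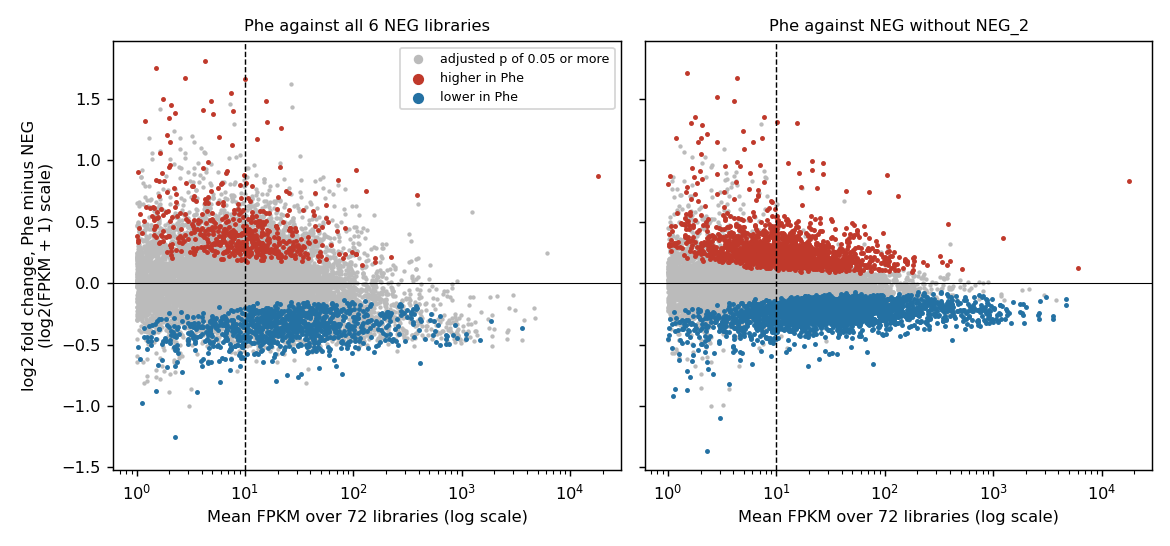
Log2 fold change of Phe against NEG (log2(FPKM + 1) scale) against the mean FPKM over the 72 libraries (log scale), with and without NEG_2, for 12121 genes as points. The dashed line marks an FPKM of 10; red genes were higher and blue genes lower in Phe at an adjusted p under 0.05 by limma.

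The number of calls depended on single libraries of both media. Among the well-expressed genes, the counts higher and lower were 48 and 111 without NEG_1, 85 and 264 without NEG_4, and 56 and 118 without NEG_5. They were 11 and 22 without Phe_1, 9 and 7 without Phe_2, 40 and 135 without Phe_3, 9 and 18 without Phe_4, 4 and 2 without Phe_5, and 90 and 322 without Phe_6. Leaving out NEG_3 or NEG_6 moved these counts by less than 1.5 times. The unadjusted p was under 0.05 for 4991 of the 12121 genes with all libraries and for 3950 to 5437 genes with 1 library left out, and the highest unadjusted p of a called gene was 0.0061. The median log2 fold changes of the 235 genes that rose and the 721 that fell, which were chosen in the fit of all libraries, lay between 0.26 and 0.35 and between −0.35 and −0.27 with 1 library left out.

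**Figure D3:**
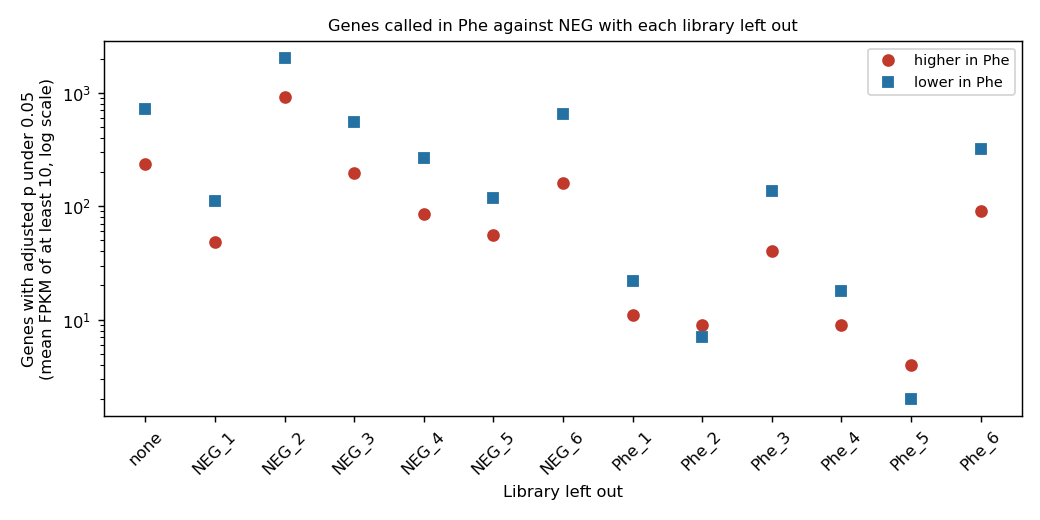
Number of well-expressed genes higher (circles) and lower (squares) in Phe at an adjusted p under 0.05 by limma, on a log scale, with no library or 1 library left out. The counts ran from 4 and 2 without Phe_5 to 923 and 2016 without NEG_2.

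The largest rises and falls among well-expressed genes that passed the adjusted p and had ranges that did not overlap are given by library. The largest rise was in a gene with a running name and a length of 2608 bp. Its FPKM was 15.3, 18.6, 12.7, 17.8, 17.4 and 13.1 in Phe_1 to Phe_6, and 6.48, 0.596, 10.6, 7.90, 7.51 and 7.72 in NEG_1 to NEG_6. NEG_2 was far below the other NEG libraries, and all Phe libraries were above all NEG libraries. The means were 15.8 ± 2.50 (SD, n = 6) in Phe and 6.80 ± 3.33 in NEG. The log2 fold change was 1.31 with an SE of 0.38 and an adjusted p of 0.0465 by limma. Without NEG_2 it was 0.90, with an adjusted p of 0.000267 by limma. Over 21 alternatives the adjusted p ran from 0.000267 to 0.112 and passed in 7. By its median over the 6 libraries, the gene was lowest in NEG (7.61) and next lowest in the arginine medium (8.70), whose ranges overlapped, and Phe (16.4) stood between the methionine medium (16.1) and Thr (17.0).

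The other rise was that of ENSBTAG00000040590, a gene of 231 bp. Its FPKM was 31.1, 28.0, 24.3, 31.3, 39.6 and 18.1 in Phe_1 to Phe_6. In NEG it was 12.5, 3.85, 17.4, 13.7, 11.8 and 12.8, with NEG_2 again the lowest. Phe_6 was only slightly above NEG_3, the highest NEG library, and the groups did not overlap. Between 71 and 152 reads in Phe and 12 and 62 reads in NEG stood behind these values. The log2 fold change was 1.26 with an SE of 0.28 and an adjusted p of 0.0288 by limma, and 0.99 without NEG_2, with an adjusted p of 0.000695. The adjusted p passed in 14 of 21 alternatives and was at most 0.112. The medians were between 16.0 and 16.9 in the arginine, leucine, histidine, isoleucine and lysine media, 28.3 in Thr, 29.5 in Phe and 31.0 in the valine medium.

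ENSBTAG00000052790, a gene of 318 bp, had the largest fall. Its FPKM was 15.7, 14.8, 21.2, 16.9, 11.7 and 18.9 in Phe_1 to Phe_6, and 28.2, 44.5, 28.2, 30.6, 23.6 and 23.0 in NEG_1 to NEG_6. NEG_2 was the highest NEG library, and Phe_3 came nearest to NEG. The log2 fold change was −0.79 with an SE of 0.16 and an adjusted p of 0.0258 by limma, and −0.67 without NEG_2, with an adjusted p of 0.00146. It passed in 15 of 21 alternatives, with an adjusted p of up to 0.273. Phe (median 16.3) stood between the histidine medium (13.8) and the leucine medium (17.4), whose ranges overlapped with it, and NEG (28.2) had the highest median of the 12 media.

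ENSBTAG00000027407, a gene of 1018 bp with 1169 to 2763 reads per library, had the second largest fall. Its FPKM was 88.9, 72.1, 101, 86.2, 90.3 and 101 in Phe_1 to Phe_6, and 146, 201, 149, 125, 151 and 139 in NEG_1 to NEG_6. All Phe libraries were below all NEG libraries. The means were 89.9 ± 10.7 (SD, n = 6) and 152 ± 25.8, and the log2 fold change was −0.74 with an SE of 0.11 and an adjusted p of 0.0169 by limma. Without NEG_2 it was −0.66, with an adjusted p of 0.000164. The adjusted p passed in 18 of 21 alternatives and reached 0.476. The gene had its highest median in NEG (147.7), then in the isoleucine medium (123) and Thr (113), and its lowest in the valine medium (40.1) and POS (47.9). It was higher in Phe than in POS, by 1.14 in log2 units with an adjusted p of 0.0125 by limma.

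**Figure D4:**
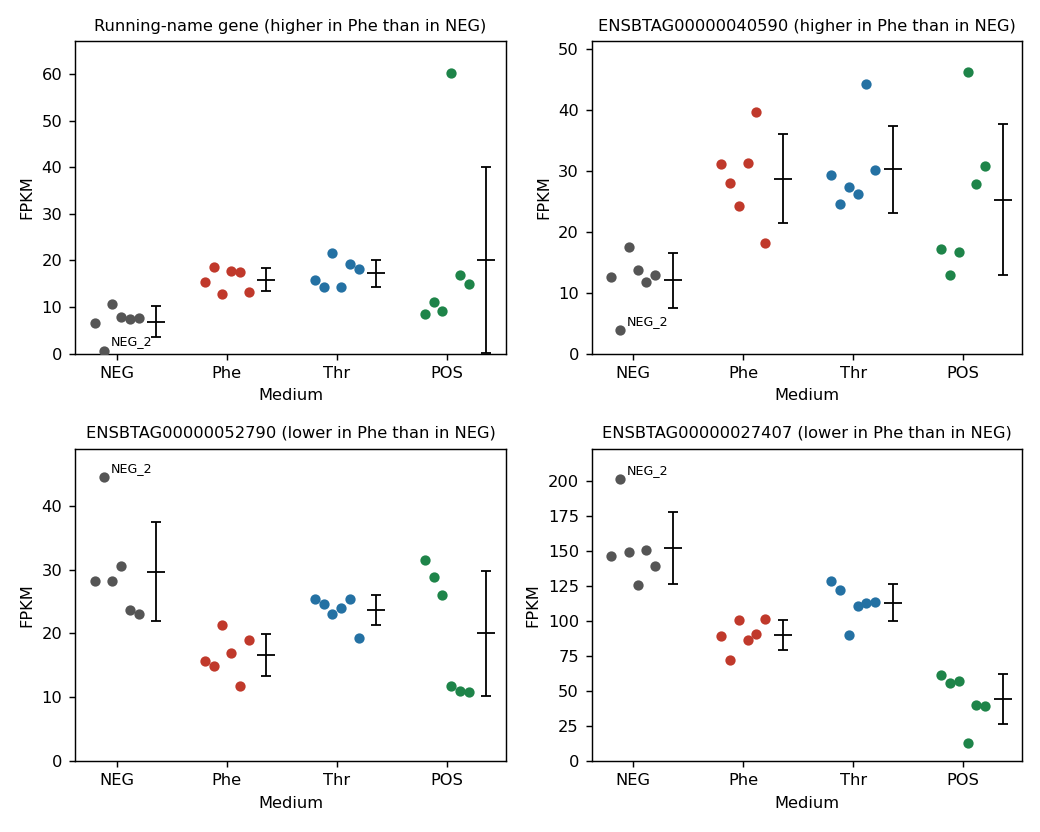
FPKM in each of the 6 NEG, Phe, Thr and POS libraries (points) of 4 genes, with the mean and SD as black marks. They are the 2 largest rises and 2 largest falls of Phe against NEG among well-expressed genes that passed the adjusted p and whose ranges were apart. By this choice the Phe and NEG points do not overlap. In all 4 genes NEG_2 was the NEG library farthest from Phe.

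The gene of highest mean FPKM among all genes tested, ENSBTAG00000054661, is described apart, as it was chosen after its values were seen. It was only 55 bp long, and its FPKM, which divides by length, ranged from 44815 to 76353 in Phe with a median of 63843. In NEG it ranged from 28922 to 42766 with a median of 33392, and between 39493 and 73362 reads in Phe and 21479 and 38284 reads in NEG stood behind these values. The groups did not overlap. The log2 fold change was 0.87 with an SE of 0.17 and an adjusted p of 0.0254 by limma, and 0.83 without NEG_2, with an adjusted p of 0.000866. With the fitted trend on gene length subtracted, the log2 fold change was 0.29 with an adjusted p of 0.252, and 0.36 with 0.135 when NEG_2 was also left out, so the call did not hold there. Over all 21 alternatives the log2 fold change reached up to 0.97, and the adjusted p passed in 13 and was at most 0.610. Thr had a median of 50774, between those of NEG and Phe. Phe against Thr had a log2 fold change of 0.31 with an adjusted p of 0.354 by limma. In 7 of the other media (arginine, histidine, isoleucine, leucine, lysine, valine and POS) no library went above 23006, whereas the methionine and tryptophan media ran from 2750 to 40214 and from 1820 to 62289. Phe was higher than POS by 4.03 in log2 units, with an adjusted p of 0.000266 by limma.

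Genes of lower level were counted apart. Among the 5669 genes of mean FPKM 1 to 10, 278 were higher in Phe (4.90%) and 245 were lower (4.32%), with median log2 fold changes of 0.41 and −0.40. In 1 fit of all 12 media 162 were higher and 12 lower. Without NEG_2 these counts were 707 (12.5%) and 476 (8.40%). They were 45 and 49 without NEG_1, 81 and 104 without NEG_4, 65 and 46 without NEG_5, and 171 and 207 without NEG_6. They were 8 and 13 without Phe_1, 4 and 2 without Phe_2, 49 and 49 without Phe_3, 6 and 9 without Phe_4, 1 and 2 without Phe_5, and 103 and 122 without Phe_6. The Phe libraries all lay above the NEG libraries for 375 genes of this class (6.61%) and all below for 140 (2.47%). The genes that rose had a median of 342 reads over the 12 libraries, those that fell 148, and all genes of the class 154. Fewer than 10 reads on average were behind 23 of the genes that rose and 6 of those that fell, and 409 of all genes of the class.

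The limits of the study for a differentially expressed gene (DEG) were a log2 fold change beyond ±1 with an unadjusted p under 0.05. They were put here on limma fold changes of log2(FPKM + 1), where the study used DESeq, so the counts are not those of the study. On this scale 45 genes were higher in Phe (0.371%) and 1 was lower (0.00825%). These were mostly short genes with few reads. The 45 higher DEG had a median length of 96 bp and a median of 5.33 reads per library, 38 were under 200 bp, 32 had fewer than 10 reads on average, and 33 were listed at 0 in at least 1 NEG library. Well-expressed genes made up 8 of the 45, and 24 of the 46 DEG passed the adjusted p. Without NEG_2 the numbers were 23 and 2. With a pseudocount of 0.1 in place of 1 they were 105 and 13, and with voom on the recovered reads 102 and 13. The lower DEG, a gene of 105 bp picked out after its values were seen, had 0, 1, 4, 1, 2 and 3 reads in Phe_1 to Phe_6 and 5, 3, 7, 5, 8 and 9 in NEG_1 to NEG_6, so that Phe_3 had more reads than NEG_2 and Phe_6 as many.

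The level of a gene went with the direction of its difference. Of the 2093 genes with a mean FPKM of 1 to 3, 4.06% were higher and 3.11% lower in Phe, and of the 3749 genes of 10 to 30, 4.88% were higher and 8.11% lower. Of the 224 genes at 300 or above, 0.893% were higher and 18.3% lower. The median log2 fold change was 0.01 in the lowest of these bins and −0.31 in the highest. Without NEG_2 the share that was lower went from 5.49% in the lowest bin to 75.4% in the highest.

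The length of a gene also went with it. The well-expressed genes that rose had a median length of 4426 bp, those that fell 1642 bp, and all well-expressed genes 2290 bp. In 5 groups of equal size by length, from the shortest (50 to 1303 bp) to the longest (3749 to 22749 bp), the median log2 fold change was −0.33, −0.21, −0.12, −0.01 and 0.16. Without NEG_2 it was −0.20, −0.14, −0.08, −0.01 and 0.10, and with scaling by total reads −0.26, −0.14, −0.05, 0.06 and 0.22. In the shortest group 1.16% of the genes were higher and 16.8% lower, and in the longest 11.7% were higher and 0.777% lower. Without NEG_2 these shares were 3.02% and 55.4% in the shortest group and 41.9% and 4.58% in the longest. Genes under 200 bp, at the short end, did not follow this order. Of the 80 well-expressed genes of that length, 10 rose and 2 fell, and 16 and 4 without NEG_2. Of the 325 at mean FPKM 1 to 10, 19 rose and 1 fell. Length and level were not the same pattern, but level went with less of a shift within a length group. Within the shortest group the median was −0.27 at an FPKM of 10 to 30 and −0.38 at 100 or more, and within the longest 0.17 and 0.13. Over all lengths it was −0.04 at 10 to 30, −0.23 at 100 to 300 and −0.31 at 300 or above.

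The length pattern could be seen in each library. The slope of log2(FPKM + 1) on gene length, in log2 units per doubling of length and relative to the mean of all libraries, was −0.014, 0.020, −0.030, −0.018, 0.002 and −0.015 in Phe_1 to Phe_6. In NEG_1 to NEG_6 it was −0.082, −0.363, −0.070, −0.079, −0.089 and −0.070. All NEG slopes were below all Phe slopes. The means were −0.009 ± 0.018 (SD, n = 6) in Phe and −0.126 ± 0.117 in NEG, a difference of 0.116, and without NEG_2 the difference was 0.069. These slopes restate the length pattern of the same 12 libraries, were computed after it was seen, and are given with no test. NEG had the lowest median slope of the 12 media (−0.081). The medians of the other media lay between −0.026 and 0.055, with Phe at −0.015 and Thr at −0.018, all above that of NEG. Leu_1 (0.508), Arg_4 (0.395) and POS_4 (0.314) had the highest slopes of single libraries.

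When a smooth trend on gene length, fitted over all genes tested, was subtracted from each library, an alternative chosen after seeing the data, 92 well-expressed genes were higher in Phe and 203 lower. The length pattern of the well-expressed genes was reduced but still there, with medians of −0.14, −0.07, −0.06, −0.03 and 0.004 from the shortest to the longest group. In all classes 459 genes passed, of which 375 were among the 1479 called on the FPKM as deposited. With NEG_2 also left out, 642 well-expressed genes were higher and 1027 lower. RNA quality values were not analysed here, and how far library preparation enters the length pattern was not tested.

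**Figure D5:**
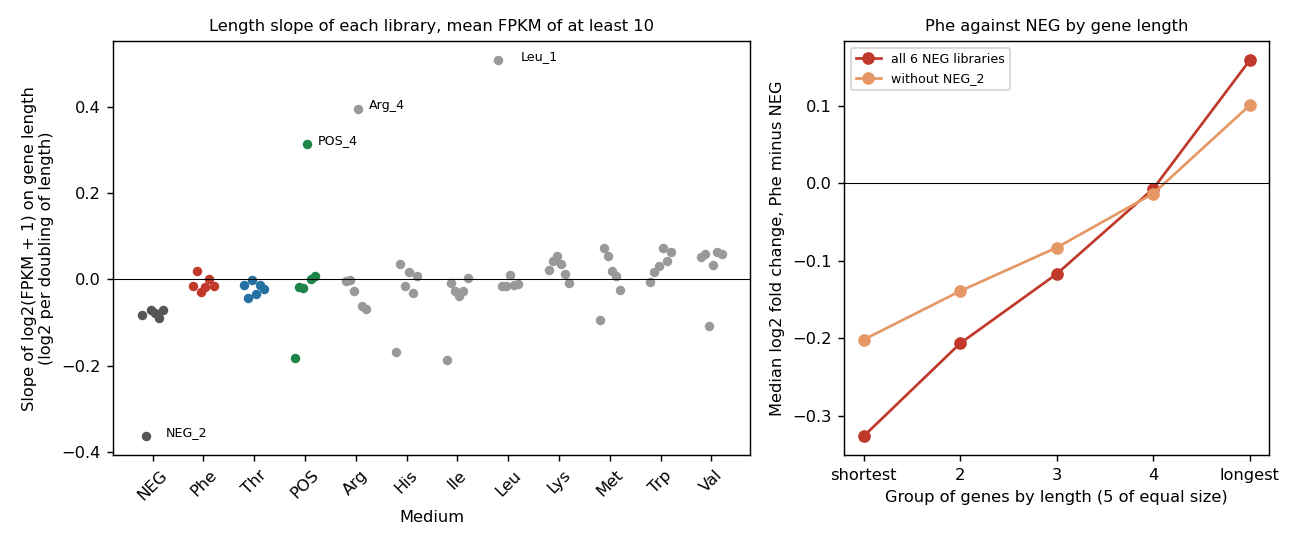
Left, slope of log2(FPKM + 1) on gene length for each of the 72 libraries, as points by medium. Right, median log2 fold change of Phe against NEG in 5 groups of the well-expressed genes by length, which ran from −0.33 to 0.16, and from −0.20 to 0.10 without NEG_2.

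More genes were detected in Phe than in NEG. The number of genes above 0 was 17571 to 17911 in Phe with a median of 17796, and 16596 to 17707 in NEG with a median of 17329. NEG_2 had the lowest number, and NEG_5 was above Phe_6 and Phe_2, so the groups overlapped. The means were 17775 ± 124 (SD, n = 6) in Phe and 17271 ± 388 in NEG. Their difference of 504.5 genes had a p of 0.0065 by a two-sided exact permutation test. It was 502 genes after all libraries were thinned to equal reads and 369.6 genes without NEG_2, with a p of 0.013 by the exact test. Genes with an FPKM of at least 0.1 differed by 413 between Phe and NEG.

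Phe was set against Thr, the medium nearest to it in replicate spread, and almost no gene passed the test. Of the 12121 genes, 1 passed the adjusted p (0.00825%), and 1714 had an unadjusted p under 0.05. The median size of the log2 fold change of Phe against Thr was 0.064 over the well-expressed genes, and the 95% interval lay within ±0.5 for 98.7% of them. This does not show that the media acted alike. Leaving out Thr_3, whose distance from the rest of Thr was 0.254 against 0.104 to 0.149 for the others, raised the count to 1179 genes, and with any other library left out it was 0 to 3. The medians of the 5 groups by gene length lay between −0.02 and 0.01.

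The gene that passed, ENSBTAG00000053952, is named because it was the only one, after its values were seen. Its FPKM was 32.5, 34.2, 32.1, 31.7, 34.3 and 34.0 in Phe_1 to Phe_6 and 39.7, 39.6, 40.1, 40.8, 42.9 and 39.5 in Thr_1 to Thr_6. The Phe libraries were all below the Thr libraries, with a small spread in each medium. The log2 fold change was −0.28 with an adjusted p of 0.0209 by limma, and 8 of 20 alternatives passed, with an adjusted p between 0.00258 and 1.00. In NEG its FPKM was 6.11 in NEG_2 and 28.5 to 32.9 in the other libraries, and Phe against NEG had an adjusted p of 0.293.

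Phe and POS, which also holds phenylalanine besides the other EAA, differed in many genes. Of the 12121 genes, 2267 were higher in Phe (18.7%) and 1940 were lower (16.0%). The balance turned with the scaling: 1961 were higher and 2351 lower when libraries were scaled by total reads, and 2058 and 2416 after a trend on gene length was fitted out of each library. Among the well-expressed genes 1238 were higher and 1057 lower, and the log2 fold change was over 1 in size in 573 well-expressed genes, against 8 in the comparison with NEG and 0 in that with Thr. Without POS_4 the number was 445, and without NEG_2 that against NEG was 2. The median size was 0.358 and the median half-width of the 95% interval 0.354 in log2 units, and 0.287 and 0.214 without POS_4. POS_4 lay 1.244 from the mean of the other POS libraries, and without it 6060 genes passed. The median log2 fold change by length ran from 0.15 in the shortest group to 0.03 in the longest, and without POS_4 from −0.02 to 0.06.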

How the data were processed

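RNA-seq of BMECs after 6 h of treatment was used: 6 Phe and 6 NEG libraries, and 6 Thr and 6 POS libraries for direct comparison. Members, lists and tests were chosen with earlier results of these data known. The authors trimmed and mapped the reads, assembled transcripts and deposited FPKM for 29550 genes. The submitters' processing notes name HISAT2 2.0.5, StringTie 1.3.3b, featureCounts 1.5.0-p3 and DESeq2 1.20.0. The reference build is not given in the sources, and whether counting used strand is unsettled, so overlapping genes cannot be told apart.

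From the deposited FPKM, whole reads per gene were recovered. Gene lengths were chosen so that the values of each gene came close to whole numbers. A distance from a whole number under 0.001 for 100% of the nonzero values follows from that choice. It is no separate check of the reads or lengths. Reads gave depth and were used for limma's voom as an alternative. They include PCR copies, so counting errors are a lower limit. Since the values were FPKM, the main test was limma 3.58.1 in R 4.3.3 on log2(FPKM + 1), a pseudocount of 1, with its prior following the mean level and genes under a mean FPKM of 1 left out. Each of 3 comparisons was fitted on the 12 libraries of its own 2 media. A fold change on this scale understates that of low genes. Genes named were the 2 largest rises and 2 largest falls of well-expressed genes that passed the adjusted p and whose FPKM ranges were apart. The numbers of genes above 0 per library were compared by exact permutation tests in scipy 1.17.1. The scripts were tested on simulated data. The metabolomics data were not used here.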

Additional observations from a re-analysis of the deposited data

Results flagged for a closer look

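Within groups of 6 libraries, the highest or lowest value was compared with its nearest neighbour by Dixon's test at the 95% level for 40 groups of values: the library measures and the genes described above in NEG, Phe, Thr and POS. Chance flags about 1 in 20 independent groups, or 2 of 40, and 11 groups had a library apart. These groups share libraries, and most of the genes were picked by their values, so the 2 is a rough guide only. No Phe library was among those apart, but the choice of genes was not blind to the Phe values.

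NEG_2 was apart in 5 groups. Its slope on gene length was −0.363, where the nearest NEG library had −0.089. Its distance from the other NEG libraries was 0.633, where the next had 0.190. Its FPKM was 44.5 for ENSBTAG00000052790 against 30.6 in the nearest NEG library, 201 for ENSBTAG00000027407 against 151, and 6.11 for ENSBTAG00000053952 against 28.5.

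POS_4 was apart in 3 groups. Its FPKM was 60.2 for the gene with a running name against 16.8 in the nearest POS library, 95.1 for ENSBTAG00000053952 against 42.9, and 9.62 for the 105 bp gene against 1.77. POS_1 had an FPKM of 18629 for ENSBTAG00000054661 against 5502 in the next POS library. In Thr, the distance of Thr_3 from its group was 0.254 against 0.149 for the next, and Thr_5 had an FPKM of 44.3 for ENSBTAG00000040590 against 30.1.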

How the results depend on the processing

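Counts below are given as higher and lower among the well-expressed genes, then higher and lower among those of mean FPKM 1 to 10. Against 235, 721, 278 and 245 for Phe against NEG, they were 67, 215, 52 and 49 without a filter on low FPKM, when 21664 genes shared the adjustment. In 1 fit of all 12 media, which takes the spread from all 72 libraries, they were 147, 113, 162 and 12, with more genes higher than lower. Of the 434 genes called in that fit, 217 were also called in the main fit. With a pseudocount of 0.1 only the genes higher at mean FPKM 1 to 10 changed by over 1.5 times, to 182. Scaling by total reads (256, 640, 287 and 170) and voom on the recovered reads (259, 773, 305 and 241) stayed within 1.5 times. Chosen after seeing the data, limma's library weights gave 948, 2215, 792 and 609, subtraction of a fitted length trend 92, 203, 98 and 66, and the same without NEG_2 642, 1027, 432 and 287. With 1 library left out the counts ran from 4 to 923, from 2 to 2016, from 1 to 707 and from 2 to 476, and the lowest and highest sum came without Phe_5 (9) and without NEG_2 (4122). The cause of these differences was not tested.

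For DEG (45 higher and 1 lower), the numbers were 105 and 13 with a pseudocount of 0.1, 102 and 13 with voom, 32 and 4 with library weights, 29 and 12 with the length trend subtracted, 13 and 8 when NEG_2 was also left out, and 23 to 58 and 1 to 4 with 1 library left out. Phe against Thr (1 gene) gave 0 with scaling by total reads, in the fit of 12 media and with the length trend subtracted, 4 with voom, 899 with library weights, and 0 to 1179 with 1 library left out. Phe against POS (4207 genes) gave 7199 with library weights and 3481 to 6060 with 1 library left out. Its 2267 genes higher and 1940 lower became 1961 and 2351 when scaled by total reads, and 2058 and 2416 with the length trend subtracted. The difference in genes above 0 ran from 369.6 to 591.8 and kept its side of the threshold.

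A replicate block, pairing Phe and NEG libraries of the same number, gave 0 genes in all 4 classes by limma (4142 at an unadjusted p under 0.05), 43 and 1 DEG, 0 genes against Thr and 3540 against POS, and the difference in genes above 0 had a p of 0.03125 by an exact test of paired sign flips. Deviations of Phe and NEG libraries of the same number correlated between −0.387 and 0.122. For Phe and Thr these correlations ran from −0.315 to 0.134, and for Phe and POS from −0.378 to 0.317. NEG_2 entered the NEG mean from which deviations were taken, and no repeat was made without it. A pairing by number can therefore not be excluded by this check. The main fits took no pairing. The higher DEG, mostly short genes, had a median of 5.33 reads, so few reads limit what their fold changes show.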
